A study of Homo sapiens with 16 samples.

Results

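The matrix metalloproteinases (MMPs), the membrane proteases of the ADAM family, the secreted proteases of the ADAMTS family and their 4 tissue inhibitors (TIMPs) were followed in sublines of 2 triple-negative breast cancer cell lines that had been sorted by a Wnt reporter. Members were all protein-coding genes whose symbol is MMP, ADAM or ADAMTS followed by a number, together with TIMP1 to TIMP4. The annotation held 66 such genes, 23 MMPs, 20 ADAMs, 19 ADAMTS and 4 TIMPs, and 64 of them had a row in the count files. A protein-coding gene was tested in a serum condition when its 8 libraries held 10 counts or more in total. This left 58 members among 16069 genes in low serum and 52 members among 15414 genes in standard serum. The annotated identifiers of MMP12 and MMP28 matched no row, so these genes were not analysed here. ADAM2, ADAM7, ADAM30, MMP20, MMP26 and MMP27 held too few counts in both serum conditions, and ADAM18, ADAM29, ADAM33, ADAMTS19, ADAMTS20 and MMP8 in standard serum alone. Next to the limit lay ADAMTS18 and ADAM18 with 11 counts inside and ADAM2 with 5 outside in low serum, and ADAM20 with 10 inside and ADAM29 with 9 outside in standard serum.

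Most of these proteases share a catalytic site that holds a zinc ion, and some ADAMs lack protease activity. MMPs cleave collagens, gelatin, laminin, proteoglycans and other proteins around the cell, ADAMs release the extracellular parts of membrane proteins such as growth factors and cytokines, and ADAMTS proteases trim proteoglycans, procollagens and other matrix proteins. TIMPs bind the active site and block it. Most members are made as inactive precursors, so a transcript level is not a level of activity. In breast cancer, MMPs are known for matrix breakdown at sites of invasion, and several MMP genes are textbook targets of Tcf/Lef and AP-1 transcription factors.

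MDA-MB-231 and MDA-MB-436 are established breast cancer cell lines with a mesenchymal phenotype, and both carried 7TGP, a vector in which repeated Tcf sites drive eGFP, so that green cells are read as Wnt-active. Repeated cell sorting by eGFP had given one positive (7TGP-POS) and one negative (7TGP-NEG) subline per cell line. Each of these 4 sublines was grown for 3 days in medium with 0.5% FBS (low serum) and for 6 days in medium with 10% FBS (standard serum), with 2 biological replicates per condition, which makes 8 groups and 16 libraries of bulk RNA-Seq. Each subline is a single sorted and expanded population, so the state of the reporter and the history of the population cannot be told apart, and the positive sublines still held some eGFP-negative cells. The methods give ribosomal RNA depletion for low serum and polyA selection for standard serum, whereas the labels name one kit for all libraries. The labels also give the same basal medium for both cell lines whereas the methods give a different one for each, so cell line and medium cannot be told apart if the methods hold. Serum cannot be told apart from culture time, kit and sequencing run, so the serum conditions were not compared by a test.

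Libraries held 27918418 to 46044073 counts. Of 10 canonical Wnt target genes, 1 was higher (10%, against 3.5% and 4.96% of all genes tested in low and standard serum) and none lower in 7TGP-POS of MDA-MB-231 in each serum condition. In MDA-MB-436, 1 was higher and 1 lower in low serum (10% each, against 6.52% and 4.03%) and 1 higher and 2 lower in standard serum (10% and 20%, against 6.47% and 6.06%). Marker lists of other cell types stayed low, with summed CPM of 3.32 to 11.2 for 4 leukocyte genes, 0.152 to 1.81 for the 2 endothelial genes measured and 2.93 to 23.9 for 5 fibroblast genes, against 947 to 6771 for 5 mesenchymal genes. CD3E held at most 2 counts in a library, DCN none in 3 of the 4 standard serum groups, and CD14, PTPRC and COL1A1 made up most of the leukocyte and fibroblast sums. The summed leukocyte markers were higher in 7TGP-POS than in 7TGP-NEG in low serum (11.2 and 10.8 against 6.29 and 8.11 CPM in MDA-MB-231, 10.4 and 10.7 against 5.51 and 5.62 in MDA-MB-436), and their part in the results was not tested. The mesenchymal sum was lower in 7TGP-POS than in 7TGP-NEG of MDA-MB-231 (3641 and 3647 against 6314 and 6132 CPM in low serum, 2985 and 2911 against 6771 and 6258 in standard serum), where VIM fell in both serum conditions and FN1 fell and SPARC rose in standard serum. In MDA-MB-436 the sum was higher in 7TGP-POS (1396 and 1397 against 1066 and 1076 CPM in low serum, 1461 and 1511 against 946.7 and 1009 in standard serum), where SPARC rose in both serum conditions and FN1 in low serum. The part of these markers in the results was not tested. The 5 epithelial genes summed to 490 to 949.6 CPM over all libraries. In bulk RNA, fewer cells with a transcript and less of it per cell cannot be told apart.

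Expression is given as counts or as CPM (counts scaled by the library total) for replicates 1 and 2 in that order. Fold changes and their standard errors (±) are on the log2 scale, 7TGP-POS against 7TGP-NEG of the same cell line unless stated. Adjusted p-values come from the quasi-likelihood test of edgeR, adjusted by Benjamini-Hochberg over all genes tested. A gene was called when its adjusted p was under 0.05 and its log2 fold change 1 or more in size, and "rose" and "fell" are used of called genes only.

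More members rose than fell in each comparison of positive and negative sublines. In MDA-MB-231, 9 members rose and 1 fell in low serum (15.5% and 1.72% of the 58 tested), against 3.5% and 2.4% of all genes tested. In standard serum 11 rose and 2 fell (21.2% and 3.85% of 52), against 4.96% and 2.72% of all genes. In MDA-MB-436, 11 rose and 3 fell in low serum (19% and 5.17%), against 6.52% and 4.03%, and 7 rose and 5 fell in standard serum (13.5% and 9.62%), against 6.47% and 6.06%. The median log2 fold change of the members tested was 0.24 and 0.55 in MDA-MB-231 and 0.29 and 0.04 in MDA-MB-436, in low and standard serum, where the median of all genes lay between -0.01 and 0.01. The medians of the members include some with 3 counts or fewer in every library compared, whose fold changes are unreliable. Examples are ADAM20, ADAMTS18 and MMP2 in MDA-MB-231 in standard serum, with large positive values. In all, 28 members were called in at least 1 of the 4 comparisons and 30 of the tested members in none. MMP1 was the single member called in all 4. In 5 of these calls every 7TGP-NEG library held 3 counts or fewer: MMP7 in MDA-MB-231 and MMP8 and MMP13 in MDA-MB-436 in low serum, and MMP2 and ADAMTS14 in MDA-MB-231 in standard serum.

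Within MDA-MB-231, 7 members rose in both serum conditions, MMP1, MMP9, ADAM28, ADAMTS3, ADAMTS5, ADAMTS14 and ADAMTS16. Within MDA-MB-436, MMP1, MMP2, MMP24, ADAM12 and TIMP3 rose and ADAMTS2 fell in both. No member was called in opposite directions in the 2 serum conditions of a cell line. The plot of log2 fold changes shows these members by role.

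**Figure D1:**
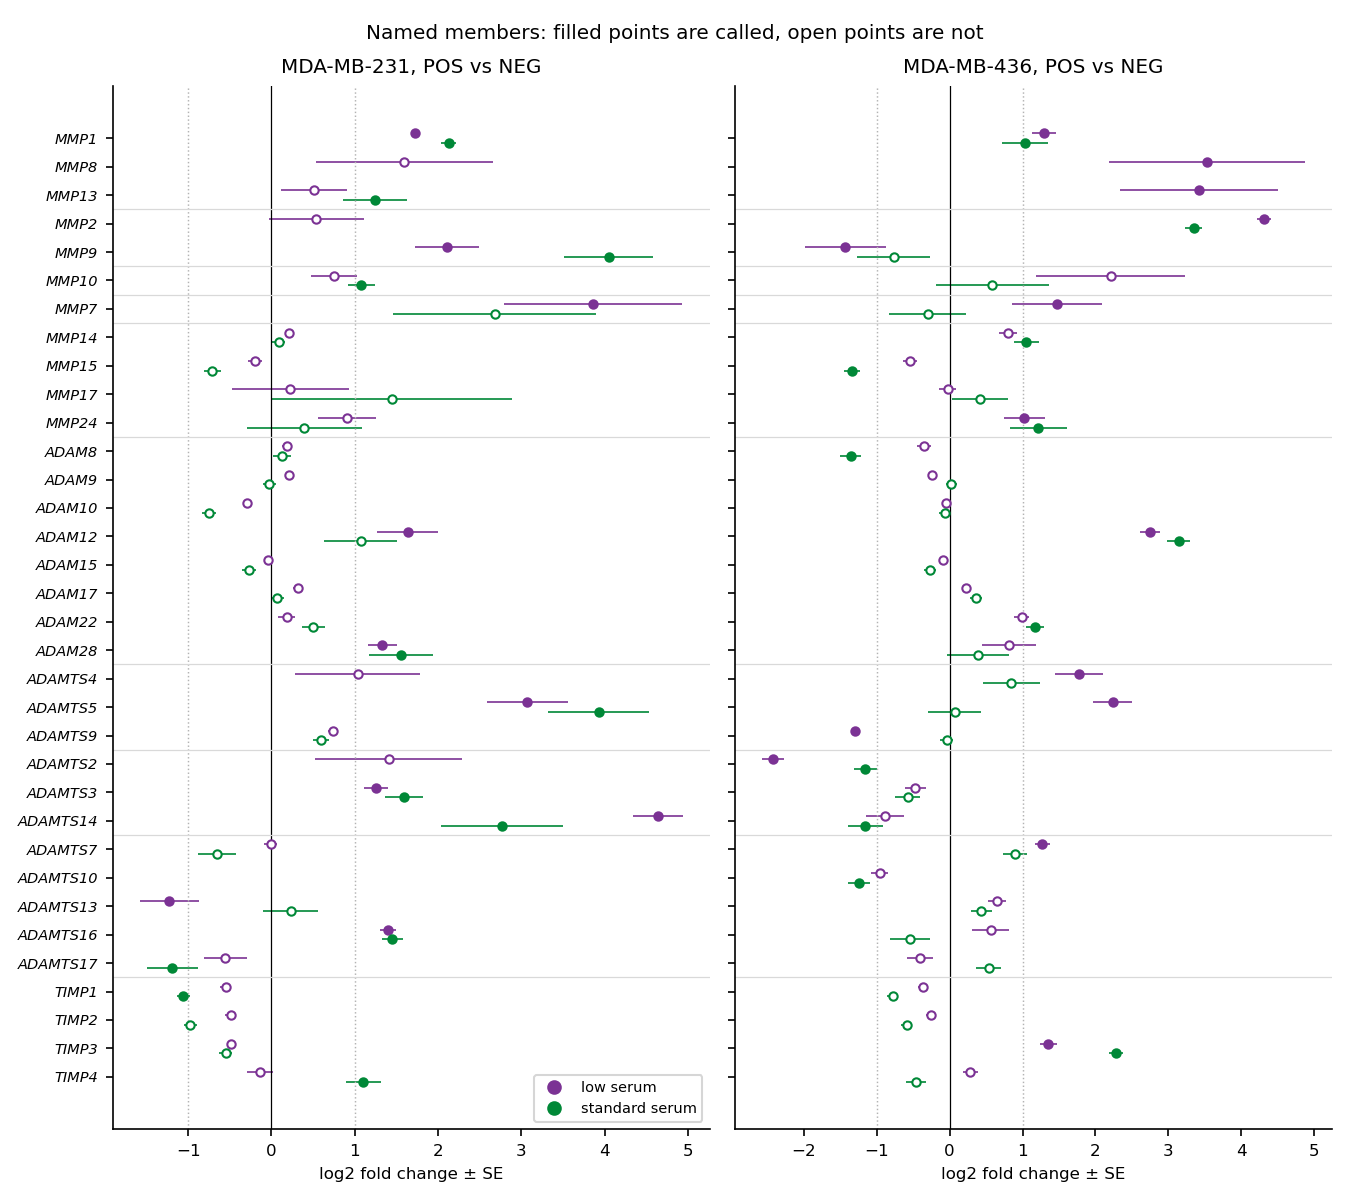
Log2 fold change (7TGP-POS against 7TGP-NEG, x axis) with its standard error for the 34 named members (rows, grouped by role, roles separated by grey lines), in MDA-MB-231 on the left and MDA-MB-436 on the right. Purple points are low serum and green points standard serum, filled where the gene was called, dotted lines mark -1 and 1, and a member at 3 counts or fewer in every library compared is not drawn. MMP1 lies right of 1 in all 4 comparisons, whereas MMP2, ADAM12 and TIMP3 reach their highest values in MDA-MB-436 and MMP9 and ADAMTS14 in MDA-MB-231.

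Promoter sequences are shown for 6 of the members that were called in at least 1 comparison and had a RefSeq promoter: MMP7 and MMP10 from the MMP cluster of chromosome 11, ADAM12, ADAMTS14, and the inhibitors TIMP1 and TIMP3. The 250 bases before the start were taken from RefSeq (GRCh38.p14), which gave a promoter for 39 members. MMP1, MMP2, MMP9 and MMP13 were not among them and were not searched. The windows of the 39 members were searched on both strands for TGACTCA, the AP-1 site, and ATCAAAG, the core of the reporter's Tcf site. On the strand of the gene they were searched for TATAAA, the TATA box. Only exact matches were counted, and near variants, such as the ttcaaag in the MMP7 window, were not. Capitals mark matches.
MMP7: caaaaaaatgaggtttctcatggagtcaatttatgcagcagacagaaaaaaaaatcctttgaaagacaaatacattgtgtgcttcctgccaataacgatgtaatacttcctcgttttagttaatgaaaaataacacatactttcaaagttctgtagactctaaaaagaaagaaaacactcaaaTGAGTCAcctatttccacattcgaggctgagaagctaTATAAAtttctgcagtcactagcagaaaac
MMP10: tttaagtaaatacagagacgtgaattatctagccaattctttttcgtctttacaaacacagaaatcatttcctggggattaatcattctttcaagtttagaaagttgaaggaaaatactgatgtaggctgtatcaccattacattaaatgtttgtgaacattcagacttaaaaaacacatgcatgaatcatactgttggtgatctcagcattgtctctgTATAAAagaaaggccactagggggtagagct
ADAM12: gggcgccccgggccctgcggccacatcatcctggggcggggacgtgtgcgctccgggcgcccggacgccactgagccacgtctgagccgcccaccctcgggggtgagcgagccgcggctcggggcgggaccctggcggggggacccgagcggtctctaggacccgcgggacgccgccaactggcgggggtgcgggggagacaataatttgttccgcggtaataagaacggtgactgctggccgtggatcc
ADAMTS14: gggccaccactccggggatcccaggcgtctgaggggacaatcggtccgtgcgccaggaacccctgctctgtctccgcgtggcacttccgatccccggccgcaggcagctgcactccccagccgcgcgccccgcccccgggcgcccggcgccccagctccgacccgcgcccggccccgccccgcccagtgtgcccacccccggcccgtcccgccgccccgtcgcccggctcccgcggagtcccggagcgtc
TIMP1: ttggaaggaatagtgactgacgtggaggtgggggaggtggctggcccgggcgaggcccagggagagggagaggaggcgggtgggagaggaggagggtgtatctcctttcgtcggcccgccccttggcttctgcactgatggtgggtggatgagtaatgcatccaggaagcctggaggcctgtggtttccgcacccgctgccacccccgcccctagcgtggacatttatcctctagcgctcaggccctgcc
TIMP3: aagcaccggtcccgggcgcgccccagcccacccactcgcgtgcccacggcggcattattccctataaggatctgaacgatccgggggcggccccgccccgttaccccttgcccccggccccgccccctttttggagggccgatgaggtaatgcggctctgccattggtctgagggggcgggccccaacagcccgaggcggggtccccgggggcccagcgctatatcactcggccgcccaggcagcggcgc
The windows are chr11:102530748-102530997, chr11:102780629-102780878 and chr10:126388478-126388727 on the minus strand and chr10:70672256-70672505, chrX:47582186-47582435 and chr22:32801455-32801704 on the plus strand. MMP7 held an AP-1 site 67 bases before the start and a TATA box at 30 bases, and MMP10 a TATA box at 31 bases. The other 4 windows held none of the 3 motifs and were rich in G and C (64.8% to 80.4%, against 33.6% in MMP7 and 34.4% in MMP10). Among the 39 members, the AP-1 site occurred in MMP7 alone, the TATA box in 6 (MMP7, MMP8, MMP10, MMP20, MMP21 and MMP26), and the exact Tcf core ATCAAAG in none. Of all 35093 promoter windows of this length, 4.2% held the AP-1 site, 6.8% the TATA box and 2.26% the Tcf core.

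The collagenases cut fibrillar collagen. MMP1, interstitial collagenase (chr11:102660132-102668891, minus strand, GRCh37), was the member with the highest summed counts in standard serum, and MMP14 in low serum. In low serum MMP1 had 393 and 404 CPM in MDA-MB-231 7TGP-NEG and 1269 and 1352 CPM in 7TGP-POS (log2 fold change 1.73 ± 0.056, adjusted p = 3.68e-23). In standard serum it had 2531 and 2460 CPM in 7TGP-NEG and 11710 and 10890 CPM in 7TGP-POS (log2 fold change 2.13 ± 0.087, adjusted p = 2.21e-12). All 4 positive libraries lay above the negative ones of their serum condition, 3.31-fold and 4.36-fold. In both standard serum 7TGP-POS libraries MMP1 had the highest TPM of all protein-coding genes, with 2.34% and 2.15% of their summed TPM, against ranks 15 and 16 in 7TGP-NEG. In low serum it ranked 12 and 10 in 7TGP-POS and 94 and 92 in 7TGP-NEG.

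In MDA-MB-436 the same gene was nearly silent. In low serum MMP1 had 43 and 51 counts in 7TGP-NEG and 107 and 119 in 7TGP-POS (log2 fold change 1.29 ± 0.16, adjusted p = 3.13e-08). In standard serum it had 6 and 13 against 26 and 20 counts (log2 fold change 1.03 ± 0.31, adjusted p = 0.0142). Positive and negative libraries did not overlap in either condition, but the standard serum call was lost without replicate 1 of 7TGP-NEG or without replicate 1 of 7TGP-POS. WTAPP1, which overlaps MMP1, MMP3 and MMP10 on the other strand, held at most 14 counts in low serum and 77 in standard serum.

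MMP13, collagenase 3, held few counts. It rose in MDA-MB-231 in standard serum (14 and 17 counts to 42 and 36, log2 fold change 1.24 ± 0.38, adjusted p = 0.0183) and had 14 and 19 against 24 and 21 in low serum, where it was not called. The standard serum call was lost without replicate 1 of 7TGP-NEG or of 7TGP-POS and with DESeq2. In MDA-MB-436 in low serum it rose from 1 and 0 to 6 and 7 counts, a count ratio of 13.4 with a 95% interval of 2.01 to 569 and adjusted p = 0.00753. MMP8, neutrophil collagenase, had 0 and 1 counts in 7TGP-NEG and 3 and 11 in 7TGP-POS of MDA-MB-436 in low serum (ratio 14.4 with a 95% interval of 2.19 to 609, adjusted p = 0.0302). Intervals of count ratios are exact and cover counting error only. Both MDA-MB-436 calls rest on at most 11 counts per library, and each was lost when single libraries were left out (7TGP-NEG replicate 2 for MMP13, either 7TGP-NEG library or 7TGP-POS replicate 2 for MMP8). The MMP8 call was also lost with DESeq2.

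The gelatinases MMP2 and MMP9, which degrade denatured collagen and basement membrane collagen, split between the cell lines. MMP2 (chr16:55423612-55540603, plus strand) was a MDA-MB-436 gene. In low serum it had 4.07 and 3.84 CPM in MDA-MB-436 7TGP-NEG and 81.6 and 77 CPM in 7TGP-POS (log2 fold change 4.31 ± 0.096, adjusted p = 1.83e-32). In standard serum the values were 5.06 and 4.16 against 49.1 and 48.3 CPM (log2 fold change 3.35 ± 0.12, adjusted p = 7.96e-13). These 19.8-fold and 10.2-fold differences far exceeded the spread between replicates. MDA-MB-231 held at most 8 MMP2 counts per library: 2 and 8 against 7 and 7 in low serum, and 0 and 0 against 3 and 2 in standard serum. The latter pair passed the call (adjusted p = 0.0333), but both groups lie at or under 3 counts in every library, so no fold change is given, and the call was lost without 7TGP-NEG replicate 1 or 2 or 7TGP-POS replicate 1 and with DESeq2.

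MMP9 (chr20:44637547-44645200, plus strand) went the other way. In MDA-MB-231 it had 7 and 12 counts in 7TGP-NEG and 42 and 37 in 7TGP-POS in low serum (log2 fold change 2.11 ± 0.38, adjusted p = 1.63e-05). In standard serum it had 7 and 0 against 68 and 58 counts (log2 fold change 4.05 ± 0.54, adjusted p = 2.57e-05). In MDA-MB-436 it fell from 13 and 15 to 3 and 7 counts in low serum (log2 fold change -1.43 ± 0.56, adjusted p = 0.0291) and had 13 and 25 against 13 and 13 counts in standard serum, where it was not called (adjusted p = 0.227). The 7TGP-POS libraries of MDA-MB-231 held the highest MMP9 counts of each serum condition, and no group was above 3 CPM. The fall in MDA-MB-436 was lost without 7TGP-NEG replicate 2 or 7TGP-POS replicate 1 and with DESeq2.

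Stromelysins cleave proteoglycans, laminin and other matrix proteins. MMP10, stromelysin 2, rose in MDA-MB-231 in standard serum from 262 and 195 to 511 and 510 counts (log2 fold change 1.08 ± 0.16, adjusted p = 3.47e-05), a call that was lost without 7TGP-NEG replicate 2. In low serum it had 35 and 32 against 55 and 53 counts, which did not overlap (log2 fold change 0.75 ± 0.27, adjusted p = 0.025) but stayed under the fold threshold. MDA-MB-436 held at most 8 MMP10 counts in a library. MMP3, stromelysin 1, was called in no comparison of positive and negative sublines, with log2 fold changes of 0.99 and 0.23 in MDA-MB-231 and 0.93 and 0.40 in MDA-MB-436 in low and standard serum. MMP11, stromelysin 3, had -0.51 and -0.27 in MDA-MB-231 and 0.48 and 0.27 in MDA-MB-436, none of them called.

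MMP7, matrilysin, among the smallest MMPs and a known Wnt target in intestinal tumours, was barely transcribed. In low serum MDA-MB-231 had 0 and 1 counts in 7TGP-NEG and 6 and 11 in 7TGP-POS (ratio 17.7 with a 95% interval of 2.77 to 739, adjusted p = 0.0033), and MDA-MB-436 had 4 and 5 against 15 and 10 (log2 fold change 1.48 ± 0.62, adjusted p = 0.0437). Both were called, and both calls were lost when single libraries were left out (7TGP-NEG replicate 1 or 7TGP-POS replicate 2 in MDA-MB-231, any of the 4 libraries in MDA-MB-436). The MDA-MB-436 call was also lost with DESeq2, without a filter on low counts, over all biotypes and with a replicate block. In standard serum the counts were 1 and 0 against 5 and 3 in MDA-MB-231 and 10 and 10 against 8 and 11 in MDA-MB-436, with no call.

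MMP1, MMP3, MMP7, MMP8, MMP10 and MMP13 lie with MMP12, MMP20 and MMP27 in one cluster of 9 MMP genes, chr11:102391239-102826461 (435 kb, GRCh37). Neighbours, here and below, are the nearest tested genes on both sides with a mean of at least 1 CPM over the 8 libraries of a serum condition. MMP7, MMP8 and MMP13 were therefore not among them, and neither were MMP3 and MMP10 in low serum. The 50 neighbours of MMP1 had a median log2 fold change of 0.37 and 0.35 in MDA-MB-231 and 0.34 and 0.45 in MDA-MB-436, low and standard serum. MMP1 stood above this median in each comparison. The part of this neighbourhood in the calls of the cluster was not tested.

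Among the 6 membrane-type MMPs, which sit on the cell surface, MMP14 (MT1-MMP, which activates the MMP2 precursor) set the cell lines apart more than the sublines. MMP14 (chr14:23305769-23318250, plus strand) had 2136 and 2210 CPM in MDA-MB-231 7TGP-NEG and 2514 and 2485 CPM in 7TGP-POS in low serum (log2 fold change 0.21 ± 0.052, adjusted p = 0.00102), and 2082 and 2010 against 2315 and 2187 CPM in standard serum (log2 fold change 0.08 ± 0.075, adjusted p = 0.433). The values of the positive libraries were a little higher and were not called. In MDA-MB-436 it had 2.82 and 2.76 against 5.37 and 4.37 CPM in low serum (log2 fold change 0.80 ± 0.13, adjusted p = 9.71e-07). It rose in standard serum from 0.799 and 0.868 to 1.85 and 1.76 CPM (log2 fold change 1.05 ± 0.17, adjusted p = 6.62e-05). This last call was lost without replicate 1 of 7TGP-NEG or of 7TGP-POS.

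MMP24 (MT5-MMP) rose in MDA-MB-436 in both serum conditions, from 27 and 19 to 48 and 44 counts in low serum (log2 fold change 1.03 ± 0.29, adjusted p = 0.00242) and from 11 and 19 to 43 and 39 in standard serum (log2 fold change 1.22 ± 0.39, adjusted p = 0.0154). MMP24OS, an overlapping gene, held 358 to 1338 counts per library, more than MMP24 in each, so a share of the MMP24 counts may be uncertain. The low serum call was lost without 7TGP-NEG replicate 2 or either 7TGP-POS library, and the standard serum call without either 7TGP-NEG library or 7TGP-POS replicate 2. DESeq2 called neither, and the low serum call was also lost with DESeq2's size factors in edgeR and with a filter of 1 CPM in 2 libraries. MMP15 (MT2-MMP) fell in MDA-MB-436 in standard serum, from 396 and 455 to 209 and 185 counts (log2 fold change -1.34 ± 0.11, adjusted p = 1.87e-08), and its other 3 log2 fold changes, -0.54 in low serum and -0.19 and -0.71 in MDA-MB-231, were also below 0 and not called. MMP16, MMP17 and MMP25 were called in none of the 4 comparisons.

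**Figure D2:**
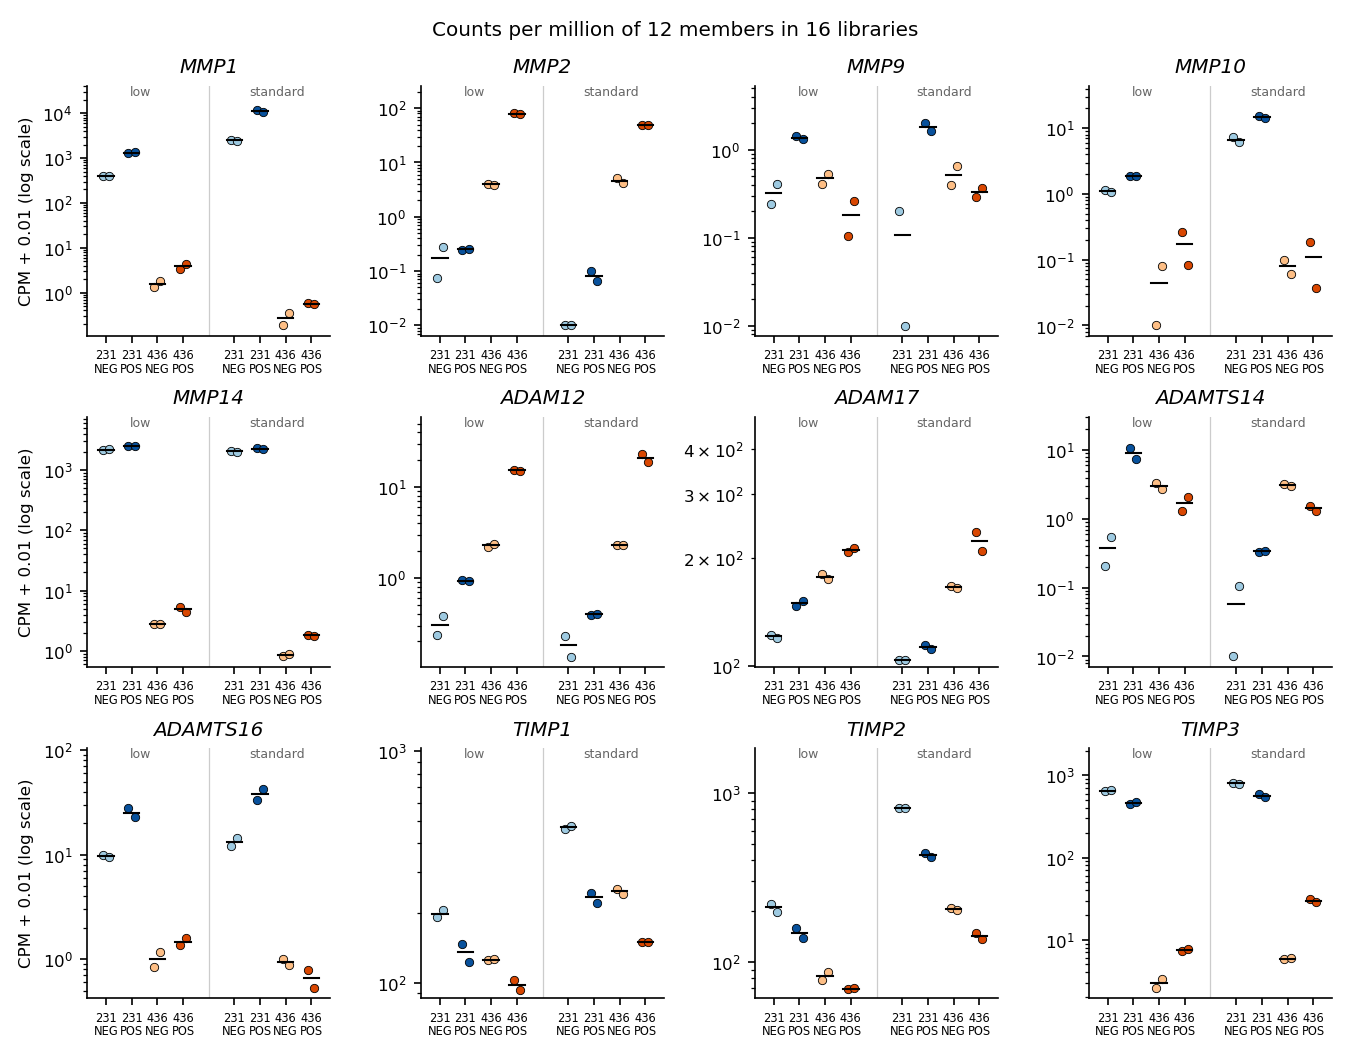
CPM plus 0.01 (y axis, log scale) of 12 members in each of the 16 libraries. Points are replicates, bars the mean of 2, blue MDA-MB-231 and orange MDA-MB-436, pale 7TGP-NEG and dark 7TGP-POS, with low serum left and standard serum right of the grey line. MMP1 and MMP14 lie about 3 orders of magnitude or more apart between the cell lines in standard serum, while MMP2 and ADAM12 are highest in MDA-MB-436 7TGP-POS.

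Of 17 ADAMs tested in low serum, 2 rose in MDA-MB-231 (11.8%, against 3.5% of all genes) and 1 in MDA-MB-436 (5.88%, against 6.52%). Of 14 tested in standard serum, 1 rose in MDA-MB-231 (7.14%, against 4.96%), and 2 rose and 1 fell in MDA-MB-436 (14.3% and 7.14%, against 6.47% and 6.06%). ADAM12 (chr10:127700950-128077046, minus strand), a protease of mesenchymal cells that can release growth factors from the membrane, rose in 3 of the 4 comparisons. In MDA-MB-436 it rose from 2.17 and 2.38 to 15.6 and 15.2 CPM in low serum (log2 fold change 2.75 ± 0.14, adjusted p = 3.04e-20) and from 2.31 and 2.27 to 22.9 and 19.1 CPM in standard serum (log2 fold change 3.14 ± 0.15, adjusted p = 1.34e-11), 6.72-fold and 8.82-fold. In MDA-MB-231 it rose from 7 and 11 to 28 and 26 counts in low serum (log2 fold change 1.64 ± 0.37, adjusted p = 0.000355), and in standard serum had 8 and 4 against 13 and 14 counts (log2 fold change 1.07 ± 0.44, adjusted p = 0.0703), which was not called. Positive libraries were above negative ones in all 4 comparisons.

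ADAM28 rose in MDA-MB-231, from 87 and 62 to 194 and 165 counts in low serum (log2 fold change 1.33 ± 0.18, adjusted p = 5.76e-08) and from 10 and 10 to 26 and 37 in standard serum (log2 fold change 1.55 ± 0.38, adjusted p = 0.00405), the latter lost with DESeq2. ADAM22, which lacks protease activity and is known as a receptor for LGI proteins, rose in MDA-MB-436 in standard serum from 205 and 241 to 725 and 467 counts (log2 fold change 1.17 ± 0.13, adjusted p = 6.64e-07) and lay just under the threshold in low serum (log2 fold change 0.99). The 50 neighbours of ADAM22 had a median of 1.02 and 1.08 in the same comparisons, so ADAM22 moved by about as much as this median. The part of the neighbours was not tested. Its standard serum call was lost without 7TGP-POS replicate 1. ADAM8, known from leukocytes and invasive tumour cells, fell in MDA-MB-436 in standard serum from 336 and 486 to 174 and 198 counts (log2 fold change -1.36 ± 0.15, adjusted p = 1.21e-05), with 441 and 314 against 283 and 296 in low serum (log2 fold change -0.35 ± 0.095, adjusted p = 0.00299).

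The broadly expressed sheddases stayed under the fold threshold. ADAM17, which releases TNF and EGF receptor ligands, had log2 fold changes of 0.31 ± 0.05 (adjusted p = 1.86e-06) and 0.07 ± 0.078 (adjusted p = 0.543) in MDA-MB-231 and 0.23 ± 0.049 (adjusted p = 0.000104) and 0.36 ± 0.077 (adjusted p = 0.000728) in MDA-MB-436, in low and standard serum. ADAM10, the main sheddase of Notch and cadherins, had -0.29 ± 0.05 (adjusted p = 7.24e-06) and -0.75 ± 0.083 (adjusted p = 1.36e-06) in MDA-MB-231 and -0.06 ± 0.052 (adjusted p = 0.391) and -0.06 ± 0.084 (adjusted p = 0.569) in MDA-MB-436. The lower ADAM10 values in MDA-MB-231 did not overlap with those of 7TGP-NEG (8044 and 6526 against 4604 and 4558 counts in standard serum), and its 50 neighbours had medians of -0.27 and -0.23. ADAM9 and ADAM15 had absolute log2 fold changes under 0.3 in every comparison of positive and negative sublines.

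The hyalectanases of the ADAMTS family cleave aggrecan and versican. ADAMTS5, the main aggrecanase of cartilage, held few counts and rose in 3 comparisons. In MDA-MB-231 it rose from 1 and 7 to 31 and 35 counts in low serum (log2 fold change 3.07 ± 0.48, adjusted p = 1.46e-06) and from 0 and 4 to 30 and 38 in standard serum (log2 fold change 3.93 ± 0.61, adjusted p = 5.7e-05). In MDA-MB-436 it rose from 26 and 14 to 91 and 94 in low serum (log2 fold change 2.24 ± 0.27, adjusted p = 3.89e-09), whereas in standard serum the counts overlapped (20 and 31 against 40 and 23, adjusted p = 0.906). ADAMTS4, another aggrecanase, rose in MDA-MB-436 in low serum from 12 and 17 to 55 and 43 counts (log2 fold change 1.77 ± 0.33, adjusted p = 1.32e-05). ADAMTS9 fell in the same comparison from 3102 and 2449 to 1141 and 1069 counts (log2 fold change -1.29 ± 0.06, adjusted p = 1.87e-21) and had -0.04 in standard serum, with 0.74 and 0.59 in MDA-MB-231. ADAMTS1, the hyalectanase with the highest CPM in MDA-MB-231, had 259 and 252 against 319 and 321 CPM there in standard serum (log2 fold change 0.27 ± 0.075, adjusted p = 0.00875), and ADAMTS15 had 21.3 and 20.2 against 34.6 and 33.4 CPM (log2 fold change 0.66 ± 0.095, adjusted p = 2.83e-05). Both lay above 7TGP-NEG without overlap and stayed under the fold threshold.

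The procollagen N-proteinases ADAMTS2, ADAMTS3 and ADAMTS14, which remove the amino-terminal propeptide of fibrillar procollagens, rose in MDA-MB-231 and fell in MDA-MB-436 where they were called. ADAMTS14 (chr10:72432262-72522197, plus strand) rose in MDA-MB-231 from 6 and 16 to 320 and 212 counts in low serum (log2 fold change 4.64 ± 0.30, adjusted p = 2.57e-10). In standard serum it had 0 and 3 against 11 and 12 counts, a count ratio of 7.5 with a 95% interval of 2.27 to 39 and adjusted p = 0.00671, a call lost without 7TGP-NEG replicate 1. In MDA-MB-436 it fell in standard serum from 107 and 116 to 71 and 47 counts (log2 fold change -1.16 ± 0.24, adjusted p = 0.000534), and in low serum had 109 and 77 against 41 and 57 (log2 fold change -0.89 ± 0.26, adjusted p = 0.00835), under the fold threshold. ADAMTS14 was the single member called in opposite directions in the cell lines in standard serum, as MMP9 was in low serum.

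ADAMTS3 rose in MDA-MB-231, from 98 and 102 to 212 and 243 counts in low serum (log2 fold change 1.25 ± 0.15, adjusted p = 2.21e-09) and from 32 and 24 to 80 and 100 in standard serum (log2 fold change 1.59 ± 0.23, adjusted p = 2.45e-05). Its values in MDA-MB-436 were lower in 7TGP-POS and not called (-0.47 ± 0.14, adjusted p = 0.00518 and -0.58 ± 0.17, adjusted p = 0.00958). ADAMTS2 fell in MDA-MB-436, from 365 and 314 to 60 and 64 counts in low serum (log2 fold change -2.42 ± 0.15, adjusted p = 3.79e-17) and from 426 and 564 to 244 and 270 in standard serum (log2 fold change -1.16 ± 0.15, adjusted p = 8.72e-06), the latter lost without 7TGP-POS replicate 1. MDA-MB-231 held at most 5 ADAMTS2 counts in a library.

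Of the other ADAMTS genes, ADAMTS16 rose in MDA-MB-231 from 302 and 282 to 828 and 648 counts in low serum (log2 fold change 1.40 ± 0.10, adjusted p = 5.64e-15) and from 442 and 460 to 1127 and 1509 in standard serum (log2 fold change 1.45 ± 0.13, adjusted p = 1.2e-07). In MDA-MB-436 it was not called (0.56 and -0.54), beside a median of -1.50 and -1.43 for its 44 neighbours. ADAMTS7, a protease that cleaves COMP, rose in MDA-MB-436 in low serum from 193 and 190 to 452 and 454 counts (log2 fold change 1.27 ± 0.10, adjusted p = 5.72e-14) and had 0.90 ± 0.16 in standard serum, and its pseudogenes ADAMTS7P3 and ADAMTS7P4 held at most 7 counts. ADAMTS10, which binds fibrillin microfibrils, fell in MDA-MB-436 in standard serum from 338 and 401 to 183 and 181 counts (log2 fold change -1.24 ± 0.16, adjusted p = 6.99e-06) and had 450 and 347 against 207 and 194 in low serum (log2 fold change -0.96 ± 0.12, adjusted p = 4.45e-09). ADAMTS13, the protease of von Willebrand factor, fell in MDA-MB-231 in low serum from 31 and 28 to 14 and 10 counts (log2 fold change -1.23 ± 0.35, adjusted p = 0.00474), and ADAMTS17 fell there in standard serum from 40 and 27 to 17 and 14 (log2 fold change -1.19 ± 0.30, adjusted p = 0.0052). The ADAMTS13 call was lost without 7TGP-POS replicate 2, and the ADAMTS17 call without 7TGP-NEG replicate 1 or 7TGP-POS replicate 2.

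Among the comparisons of positive and negative sublines, TIMP1 fell and TIMP4 rose in 1 each. Of the other inhibitors, TIMP3 rose in both comparisons of MDA-MB-436 and TIMP2 was not called. TIMP1 (chrX:47441807-47446188, plus strand), a secreted inhibitor of most MMPs, fell in MDA-MB-231 in standard serum from 464 and 476 to 245 and 222 CPM (log2 fold change -1.06 ± 0.076, adjusted p = 5.41e-09), a call lost without 7TGP-POS replicate 2. Its other values were also lower in 7TGP-POS without overlap and stayed under the fold threshold: -0.55 ± 0.069 (adjusted p = 5.29e-06) in MDA-MB-231 in low serum, and -0.37 ± 0.07 (adjusted p = 0.000279) and -0.78 ± 0.076 (adjusted p = 1.56e-07) in MDA-MB-436. TIMP2, which binds MMP14 and takes part in the activation of MMP2, had -0.49 ± 0.064 (adjusted p = 2.89e-06) and -0.97 ± 0.076 (adjusted p = 1.65e-08) in MDA-MB-231 and -0.26 ± 0.069 (adjusted p = 0.00348) and -0.59 ± 0.077 (adjusted p = 4.88e-06) in MDA-MB-436, none called. TIMP1 and TIMP2 were thus lower in the positive subline by edgeR's adjusted p in all 4 comparisons, by less than 2-fold in all but one.

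TIMP3 (chr22:33197691-33259028, plus strand), which is bound to the matrix and also inhibits ADAM17 and aggrecanases, differed in direction between the cell lines. In MDA-MB-231 it had 638 and 656 against 448 and 473 CPM in low serum (log2 fold change -0.48 ± 0.051, adjusted p = 2.7e-10) and 806 and 788 against 593 and 539 CPM in standard serum (log2 fold change -0.55 ± 0.078, adjusted p = 2.31e-05), lower in 7TGP-POS and not called. In MDA-MB-436 it rose from 2.6 and 3.28 to 7.36 and 7.74 CPM (log2 fold change 1.35 ± 0.12, adjusted p = 5.94e-13) and from 5.8 and 6 to 30.9 and 28.7 CPM (log2 fold change 2.28 ± 0.098, adjusted p = 2.27e-12). Even so, the MDA-MB-436 values stayed far below those of MDA-MB-231. TIMP4 rose in MDA-MB-231 in standard serum from 43 and 35 to 96 and 82 counts (log2 fold change 1.11 ± 0.21, adjusted p = 0.000537), lost without 7TGP-POS replicate 1. It was called in no other comparison of positive and negative sublines. SYN1, SYN2 and SYN3, which overlap TIMP1, TIMP4 and TIMP3, held at most 82, 372 and 9 counts in a library.

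TPM, which is scaled per length, allows genes of a library to be ordered. In MDA-MB-231 7TGP-NEG in low serum, MMP14 came first (1177 and 1231 TPM) and MMP1 second (491 and 510.1), and in 7TGP-POS MMP1 came first (1473 and 1404) before MMP14 (1288 and 1139). In standard serum MMP1 led in both sublines (4911 and 4608 TPM in 7TGP-NEG, 22290 and 20370 in 7TGP-POS). MMP1 was 47.9% and 47.4% of the family's summed TPM in 7TGP-NEG and 82.7% and 82.3% in 7TGP-POS in standard serum, and 15.8% in both 7TGP-NEG and 36.5% and 38.7% in 7TGP-POS libraries in low serum. In MDA-MB-436, by contrast, TIMP1 led in each group (221 and 206, 139 and 139, 517 and 498, 317 and 314 TPM in 7TGP-NEG and 7TGP-POS of low and then standard serum), and ADAM9, ADAM15 and ADAM17 followed among the first 5. MMP2 entered the first 5 in 7TGP-POS in low serum alone (40 and 41.5 TPM).

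The summed MMP transcripts against the summed TIMP transcripts give the same contrast as a ratio of TPM. In MDA-MB-231 the ratio was 2.39 and 2.4 in 7TGP-NEG and 5.8 and 6.33 in 7TGP-POS in low serum, and 3.05 and 2.94 against 18.7 and 19.1 in standard serum. In MDA-MB-436 it was 0.144 and 0.137 against 0.381 and 0.406 in low serum, and 0.0429 and 0.0465 against 0.14 and 0.148 in standard serum. The ratio was higher in 7TGP-POS in each pair without overlap, and below 1 in every MDA-MB-436 library. Single genes weighed heavily in it. In MDA-MB-231 7TGP-POS, MMP1 was 52.9% and 54.8% of the MMP TPM in low and 91.7% and 91.6% in standard serum. In MDA-MB-436 7TGP-POS, MMP2 held 39.98 and 41.55 of 73.59 and 81.52 MMP TPM in low serum, and 37.53 and 36.59 of 65.05 and 67.63 in standard serum. The ratio describes transcripts and was not tested. Protein-coding genes took 41.0% to 69.6% of TPM in low serum and 94.3% to 95.7% in standard serum, so TPM is compared here within a library only. In low serum that share was also lower in 7TGP-POS (46.8% and 41.0% against 50.7% and 52.3% in MDA-MB-231, 51.1% and 56.2% against 69.6% and 64.2% in MDA-MB-436).

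**Figure D3:**
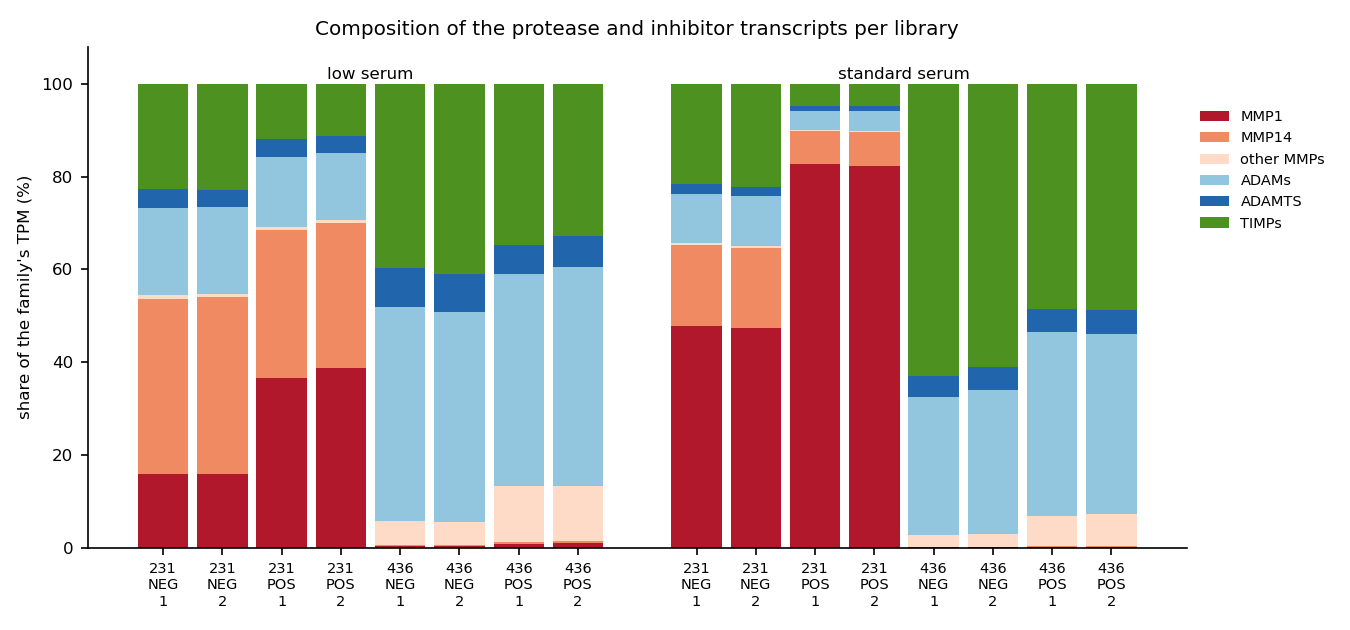
Share of the family's summed TPM (y axis, percent) held by MMP1, MMP14, the other MMPs, ADAMs, ADAMTS and TIMPs in each of the 16 libraries (x axis: cell line, subline and replicate). MMP1 and MMP14 fill most of the MDA-MB-231 bars, MMP1 reaching 82.7% in 7TGP-POS in standard serum, whereas ADAMs and TIMPs fill the MDA-MB-436 bars and the other MMPs hold 2.61% and 2.72% in 7TGP-NEG and 6.49% and 6.93% in 7TGP-POS in standard serum.

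The cell lines themselves were far apart in this family in the size of the fold changes. By adjusted p alone, 79.3% and 80.8% of members passed between the 7TGP-NEG sublines in low and standard serum. These shares were near the 79.2% and 78.8% of all genes. Between the 7TGP-NEG sublines, 22 members were higher and 17 lower in MDA-MB-231 in low serum (37.9% and 29.3%), against 20.5% and 21.4% of all genes tested, and 19 were higher and 19 lower in standard serum (36.5% each), against 21.3% and 25.4%. Of these, 33 were called in the same direction in both serum conditions and none in opposite directions. In 7 of the 39 calls in low serum and 10 of the 38 in standard serum, 1 of the sublines held 3 counts or fewer in each library. The proteases of MDA-MB-231 were led by MMP14 (log2 fold change 9.71 ± 0.087 in low and 11.46 ± 0.13 in standard serum) and MMP1 (8.12 ± 0.096 and 13.41 ± 0.16), and TIMP3 stood beside them (7.89 ± 0.082 and 7.28 ± 0.11). In standard serum MMP1 held 6 and 13 counts in MDA-MB-436 7TGP-NEG, so its standard error there is likely too small. ADAM8 (5.06 and 5.95), ADAMTS1 (4.72 and 5.71) and ADAMTS12 (4.35 and 4.40) were also higher in MDA-MB-231.

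On the side of MDA-MB-436, ADAMTS10 had 450 and 347 counts in low serum against 2 and 1 in MDA-MB-231, a count ratio of 263 with a 95% interval of 89.6 to 1277, and in standard serum 338 and 401 against 0 in both libraries, at least 115-fold higher when MDA-MB-231 is set at a floor of 3 counts per library. By the same floor in standard serum, MDA-MB-436 held at least 154-fold more ADAMTS2 and at least 52-fold more MMP2. MMP17 (MT4-MMP) had 337 and 268 against 3 and 5 counts in low serum (log2 fold change -6.08 ± 0.27). MMP1, MMP14 and TIMP3 transcripts were thus higher in MDA-MB-231, and ADAMTS2, ADAMTS10, MMP2 and MMP17 transcripts in MDA-MB-436.

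**Figure D4:**
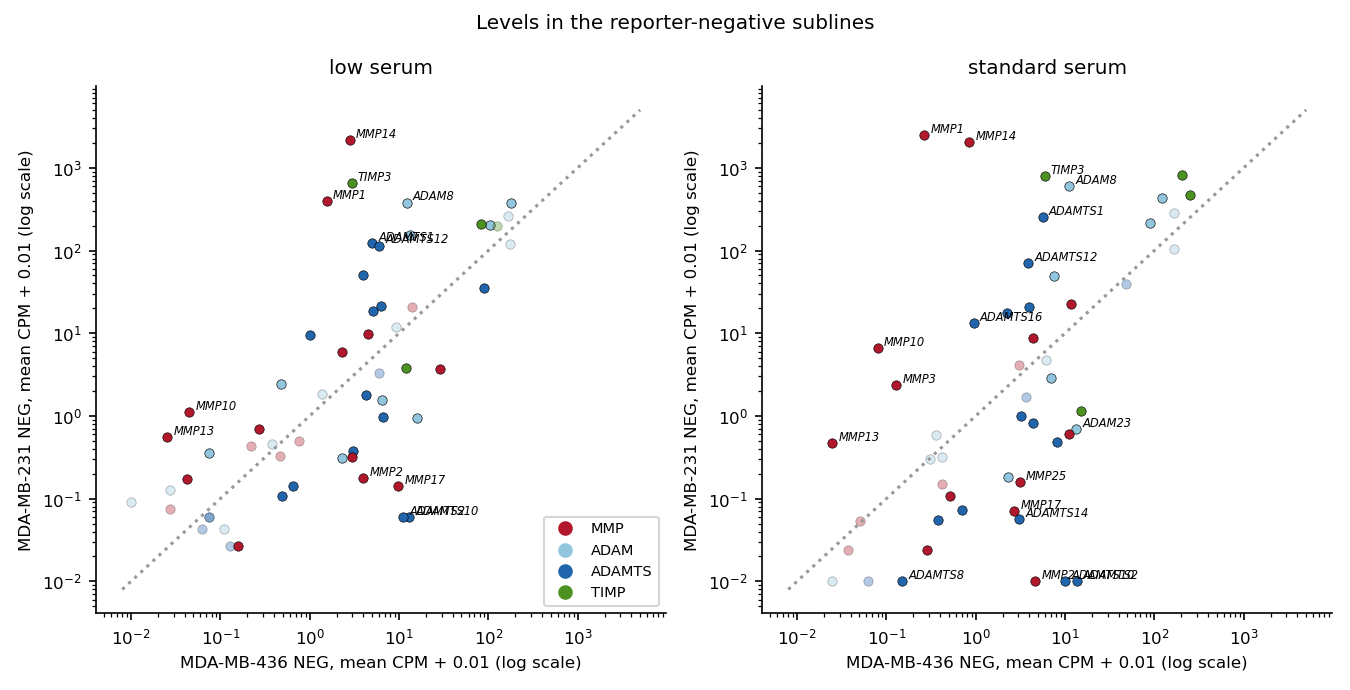
Mean CPM plus 0.01 of the tested members in MDA-MB-231 7TGP-NEG (y axis) against MDA-MB-436 7TGP-NEG (x axis), both on log scales, in low serum (left) and standard serum (right), coloured by family and faded where not called. The dotted line marks equal levels, and labels mark called members with a log2 fold change of 4 or more in size, such as MMP1, MMP14 and TIMP3 above the line and ADAMTS2, ADAMTS10 and MMP2 below it.

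Whether a member changed unequally in the cell lines was tested as the difference of the log2 fold changes (MDA-MB-231 minus MDA-MB-436) in the same model. In low serum 13 of 58 members were called (22.4%), against 11.7% of all genes tested, and in standard serum 13 of 52 (25%), against 13.8%. ADAM12, ADAMTS3, ADAMTS7, ADAMTS14, MMP9 and TIMP3 were called in both. The largest differences towards MDA-MB-231 in low serum were those of ADAMTS14 (5.53 ± 0.42, adjusted p = 2.18e-09), ADAMTS2 (3.83 ± 0.91, adjusted p = 0.000575) and MMP9 (3.54 ± 0.68, adjusted p = 3.08e-05), and towards MDA-MB-436 that of MMP2 (-3.77 ± 0.69, adjusted p = 1.53e-05), lost without MDA-MB-231 7TGP-NEG replicate 2. TIMP3 also differed towards MDA-MB-436 (-1.84 ± 0.13, adjusted p = 1.6e-15), as did ADAM20 and MMP13, which held few counts, and ADAM12 (-1.11 ± 0.45, adjusted p = 0.0416). The ADAM12 and MMP13 differences were lost under 9 and 10 of the alternatives, without single libraries of either cell line among them, and that of ADAM20 without MDA-MB-231 7TGP-POS replicate 2, MDA-MB-436 7TGP-NEG replicate 1 or MDA-MB-436 7TGP-POS replicate 1 and with DESeq2. In standard serum MMP9 (4.82 ± 0.77, adjusted p = 0.000127), ADAMTS14 (3.92 ± 0.75, adjusted p = 0.00037) and ADAMTS5 (3.86 ± 0.75, adjusted p = 0.000445) differed towards MDA-MB-231 and TIMP3 (-2.82 ± 0.13, adjusted p = 6.01e-12) and ADAM12 (-2.07 ± 0.53, adjusted p = 0.00411, lost without MDA-MB-231 7TGP-NEG replicate 1) towards MDA-MB-436. MMP1 rose more in MDA-MB-231 in standard serum (1.09 ± 0.36, adjusted p = 0.0268, lost without MDA-MB-436 7TGP-NEG replicate 2), and its difference in low serum was not called (0.43 ± 0.18, adjusted p = 0.0511).

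**Figure D5:**
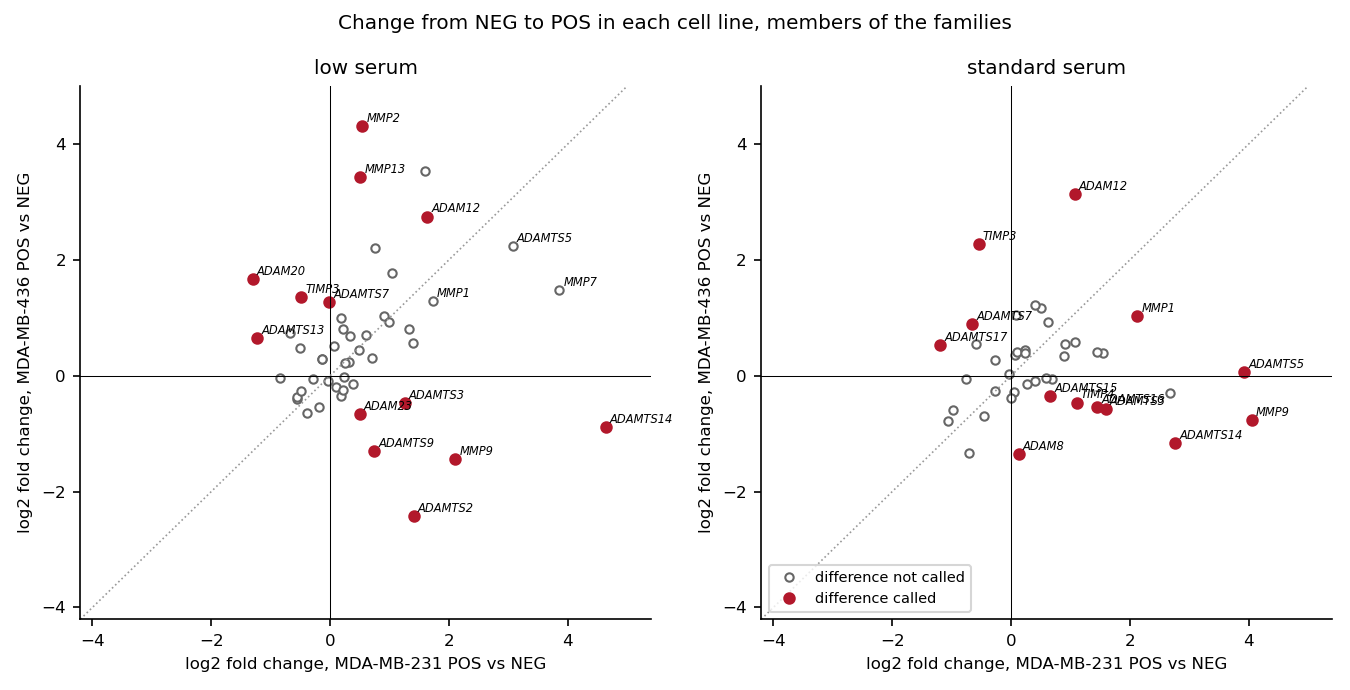
Log2 fold change of 7TGP-POS against 7TGP-NEG in MDA-MB-231 (x axis) and in MDA-MB-436 (y axis) for 49 members in low serum (left) and 42 in standard serum (right), leaving out members at 3 counts or fewer in all 4 libraries of a comparison. Red points are members whose difference between the cell lines was called, and the dotted line marks equal changes. MMP9, ADAMTS14 and ADAMTS3 lie to the lower right and TIMP3 to the upper left in both conditions.

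Genes that process, inhibit or clear these proteases were taken as a list. Of 32 such genes tested, none rose and 2 fell in MDA-MB-231 in each serum condition (6.25% fell, against 2.4% of all genes in low and 2.72% in standard serum). In MDA-MB-436, 3 rose and 1 fell in low serum (9.38% and 3.12%, against 6.52% and 4.03%), and 1 rose and 4 fell in standard serum (3.12% and 12.5%, against 6.47% and 6.06%). A2M, a plasma inhibitor that traps proteases of all classes, fell in MDA-MB-231 from 80 and 71 to 25 and 14 counts in low serum (log2 fold change -1.88 ± 0.27, adjusted p = 2.3e-07) and rose in MDA-MB-436 from 3 and 1 to 63 and 61 (ratio 31.9 with a 95% interval of 12.2 to 119, adjusted p = 4.18e-12). PCSK5, a convertase that activates precursors, fell in MDA-MB-231 (-1.09 ± 0.16, adjusted p = 7e-07 and -1.94 ± 0.27, adjusted p = 1.78e-05) and in MDA-MB-436 in low serum (-1.04 ± 0.15, adjusted p = 2.63e-07). SPOCK1, a proteoglycan of the testican group, rose in MDA-MB-436 (1.38 ± 0.066, adjusted p = 5.6e-21 and 1.57 ± 0.12, adjusted p = 6.18e-09), and PAPLN, papilin, a relative of the ADAMTS proteins, rose there in low serum (2.89 ± 0.13, adjusted p = 2.01e-21).

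In MDA-MB-436 in standard serum, PLAUR, the urokinase receptor, fell (-1.65 ± 0.092, adjusted p = 8.36e-11), as did LRP1, an endocytic receptor that clears MMPs and ADAMTS proteases (-1.24 ± 0.15, adjusted p = 0.000291), and the tetraspanins TSPAN15 (-1.11 ± 0.11, adjusted p = 2.62e-07) and TSPAN10 (-1.50 ± 0.21, adjusted p = 1.19e-05), which guide ADAM10 to the surface. ADAM10 itself had 3036 and 3454 against 4328 and 3035 counts in these libraries. The 2 standard serum replicates of 7TGP-POS from MDA-MB-436 differed more from each other than those of any other group (chi-square per gene 27.1, against 3.03 to 13.9).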

How the data were processed

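Bulk RNA-Seq of 16 libraries was deposited by the authors as raw read counts per gene, one table per serum condition, together with TPM values per gene. Per the methods, reads were aligned with STAR to hg19 and counted over Gencode v19 genes. The submitters' notes name STAR 2.6.1a. The strand setting of the counting was not given in the sources used here. The methods name a directional kit for low serum, a stranded kit for standard serum and a check of read orientation. Reads of genes that overlap on opposite strands can be told apart only if they were counted by strand. The low-serum libraries were described as depleted of ribosomal RNA and the standard-serum libraries as polyA-selected.

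Of 57820 gene identifiers in the files, 55538 matched the annotation (Gencode, GRCh37), which gave gene symbols, biotypes and coordinates. Protein-coding genes with 10 or more counts in total per serum condition (8 libraries) were fitted with edgeR 4.0.16 (TMM factors, robust quasi-likelihood test, R 4.3.3) over 4 groups per serum condition, and p-values were adjusted by Benjamini-Hochberg over all genes tested. A gene was called at an adjusted p under 0.05 with a log2 fold change of 1 or more in size. The deposited TPM values served to order genes and to take ratios within a library, and how the authors computed them from counts is not given in the sources used here. A group at 3 counts or fewer in each library was taken as at the floor and given a count ratio with an exact 95% interval. The fit was tested on simulated data. Members named are those called in at least 1 comparison of positive and negative sublines, 11 members chosen for their role, those with the highest TPM per group and those furthest apart between the negative sublines. Outside this rule, ADAM20, ADAM23, ADAMTS1, ADAMTS12, ADAMTS15, MMP3, MMP11, MMP16, MMP21 and MMP25 were named after their values were seen, to complete a role or a count. Members and lists were chosen with earlier results of these data known. With 2 replicates per group, p-values measure the spread between these cultures of one subline. Total counts ranged from 27918418 to 46044073 per library. Alternatives were DESeq2 1.42.0 (size factors in the same fit, and its Wald test), other filters on low counts, all biotypes, a call by adjusted p alone, the replicate number as a block and leaving out each library. Promoters came from RefSeq (GRCh38.p14).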

Additional observations from a re-analysis of the deposited data

Results flagged for a closer look

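The change of a member from 7TGP-NEG to 7TGP-POS differed between the cell lines in 26 cases, by edgeR's test of the difference of the log2 fold changes (MDA-MB-231 minus MDA-MB-436). In low serum the difference was above 0 for ADAMTS14 (5.53, adjusted p = 2.18e-09), ADAMTS2 (3.83, adjusted p = 0.000575), MMP9 (3.54, adjusted p = 3.08e-05), ADAMTS9 (2.03, adjusted p = 1.87e-22), ADAMTS3 (1.72, adjusted p = 2.88e-09) and ADAM23 (1.16, adjusted p = 0.000533). It was below 0 for MMP2 (-3.77, adjusted p = 1.53e-05), ADAM20 (-2.97, adjusted p = 0.0205), MMP13 (-2.91, adjusted p = 0.0439), ADAMTS13 (-1.88, adjusted p = 5.32e-05), TIMP3 (-1.84, adjusted p = 1.6e-15), ADAMTS7 (-1.28, adjusted p = 8.13e-11) and ADAM12 (-1.11, adjusted p = 0.0416). In standard serum it was above 0 for MMP9 (4.82, adjusted p = 0.000127), ADAMTS14 (3.92, adjusted p = 0.00037), ADAMTS5 (3.86, adjusted p = 0.000445), ADAMTS3 (2.17, adjusted p = 8.31e-06), ADAMTS16 (1.99, adjusted p = 5.03e-05), TIMP4 (1.57, adjusted p = 6.92e-05), ADAM8 (1.48, adjusted p = 4.89e-05), MMP1 (1.09, adjusted p = 0.0268) and ADAMTS15 (1.02, adjusted p = 5.52e-05). It was below 0 for TIMP3 (-2.82, adjusted p = 6.01e-12), ADAM12 (-2.07, adjusted p = 0.00411), ADAMTS17 (-1.72, adjusted p = 0.000638) and ADAMTS7 (-1.55, adjusted p = 0.000189).

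Several of these values rest on few counts. ADAM20 had 11 and 10 against 6 and 2 counts in MDA-MB-231 and 2 and 2 against 7 and 6 in MDA-MB-436 in low serum, and ADAMTS2 held at most 5 counts per library in MDA-MB-231. In low serum MMP2 had 2 and 8 against 7 and 7 counts in MDA-MB-231, and MMP13 1 and 0 against 6 and 7 in MDA-MB-436. The low serum differences of MMP13, ADAM12, ADAM20 and MMP2 were lost under 10, 9, 4 and 1 of the alternatives. Those of ADAM12 and MMP1 in standard serum were lost under 1 each. ADAM23, which is known as a ligand-binding protein without protease activity, changed by 0.50 ± 0.26 in MDA-MB-231 and by -0.67 ± 0.10 in MDA-MB-436 (log2, low serum), so neither passed the call although their difference did. The same held for ADAMTS15 in standard serum (0.66 ± 0.095 and -0.36 ± 0.13), a difference lost without MDA-MB-231 7TGP-NEG replicate 2 or 7TGP-POS replicate 1 or MDA-MB-436 7TGP-NEG replicate 2 or 7TGP-POS replicate 1. No group had enough libraries for a test of single outlying libraries.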

How the results depend on the processing

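No direction turned under any alternative. Without the minimum fold change, the members called numbered 28 in MDA-MB-231, 35 in MDA-MB-436 and 25 for the difference between the cell lines in low serum. These were 48.3%, 60.3% and 43.1% of the members, beside 38.9%, 52.0% and 45.7% of all genes tested. The standard serum numbers were 27, 29 and 23 (51.9%, 55.8% and 44.2%), beside 33.0%, 49.5% and 41.2%. For the difference, the share of members was thus below that of all genes in low serum and near it in standard serum. Between the negative sublines, 46 members passed in low serum (79.3%, beside 79.2% of all genes). In standard serum 42 passed (80.8%, beside 78.8%), so both shares were near that of all genes. Under the other settings every count of members called stayed within 1.5 times its value. Leaving out each library gave 9 to 11 members for MDA-MB-231 and 12 to 14 for MDA-MB-436 in low serum, 10 to 13 and 8 to 12 in standard serum, 36 to 39 between the negative sublines, and 10 to 14 for the difference. A group left with 1 library was assumed to vary like the others. Of all 152 calls of single members, 118 were kept in every alternative that tested them and 34 were lost in at least 1. The DESeq2 Wald test lost 14 of the 152. These include 39 and 38 calls between the negative sublines, in low and standard serum. Most of the lost calls, however, were of positive against negative sublines, so those calls were less stable than the pooled numbers. The cause was not tested.

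The labels do not say that a replicate number marks a shared day or batch, so the main fit did not pair samples by it. The differences of replicate 1 and 2 correlated over 0.1 in none of 6 pairs of groups in low serum (-0.183 to 0.0786). In standard serum they did so in 5 of 6 (-0.0393 to 0.397). Whether the replicate number marks a shared batch there was not tested. With a replicate block, 10, 13, 38 and 12 members were called in low serum (MDA-MB-231, MDA-MB-436, negative sublines, difference) and 13, 12, 38 and 13 in standard serum. The block lost 3 calls, all in low serum: MMP7 in MDA-MB-436, MMP21 between the negative sublines and the MMP13 difference. With 2 libraries per group, members under about 10 counts gave wide intervals, and changes in them may not be detectable at this depth.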
